A study of Mus musculus with 24 samples.

Results

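The interleukin receptor chains are the cell surface proteins through which white cells sense interleukins. They were chosen here as the genes whose symbol on the array starts with Il, a number and r, without Il1rn, which is a soluble antagonist. The rule found 42 of the 21597 genes named on the array, with 73 of its 41174 probes, and 35 of the 42 passed a filter on dim probes and were tested among 17347 genes. RNA of C57BL/6 mice was measured in thioglycollate-elicited peritoneal macrophages (EPM), which were harvested from the peritoneum and kept by adherence, in bone marrow-derived macrophages (BMDM), which were grown from bone marrow in L-cell conditioned medium, and in splenic B cells, which were left after magnetic depletion of CD43+ and CD11b+ cells. Each cell type was exposed to Kdo2 lipid A (KLA), a purified TLR4 agonist, for 1 h or 12 h. The early control was untreated in EPM and in B cells and DMSO for 1 h in BMDM, and the 12 h control was DMSO in each cell type. Each of the 12 conditions was a single 2-colour array, with replicate 1 in Cy5 and replicate 2 in Cy3 (n = 2), and the 4 arrays of a cell type lay on a slide of their own. Cell type and slide can therefore not be told apart, and p-values measure the spread within arrays and leave out differences between arrays.

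Most interleukins act through receptors of several chains. A chain that is private to a cytokine binds it, and a shared chain, such as the common gamma chain, gp130, IL-12 receptor beta 1, IL-10 receptor beta or IL-17 receptor A, brings in the JAK kinases or adaptors that carry the signal. In macrophages these receptors set which lymphocyte products the cell can answer, and some chains act as decoys or present their ligand to neighbouring cells.

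The 42 chains fell into 7 families. These were the IL-1 receptor family (9), the common gamma chain and IL-4/IL-13 receptors (10), the common beta chain receptors (2), the gp130 and IL-12 class (7), the class II receptors of the IL-10 family (7), the IL-17 receptor family (5), and the CXC chemokine receptors Il8ra and Il8rb, which are now called Cxcr1 and Cxcr2. Il28ra, the interferon lambda receptor chain, is now called Ifnlr1. Of the 42, 18 were well above background in both channels of all 12 conditions, and 6 in no channel. The 7 that were not kept were Il1rapl1, Il1rapl2, Il13ra2, Il20ra, Il22ra2, Il17rb and Il8ra. Per condition, 26 to 30 chains were well above background in both channels. Values are normalised log2 intensities and are comparable between conditions for a probe but not between probes.

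The cells carried the markers of their labels. All 8 macrophage markers were well above background in EPM and BMDM, and all 7 B cell markers in B cells. In B cells, 5 or 6 of the 8 macrophage markers were also well above background in both channels, with a summed linear intensity of 2650 to 6540 against 387000 to 519000 in the macrophages, and Itgam and Mrc1 were in no channel. In the macrophages, 5 to 7 of the 7 B cell markers were well above background, with a summed intensity of 21300 to 66400 against 277000 to 337000 in B cells, and Pax5 was at background in 7 of the 8 conditions. Of the 4 neutrophil markers, 4 were well above background in BMDM (summed intensity 1370 to 2120) and 2 in EPM (361 to 411). Per channel, 57.4% to 65% of probes stood well above background. In the authors' normalised table the B cell KLA 1 h and B cell 12 h control columns followed each other's channels (correlations of 0.96 to 0.97, against -0.68 to -0.75 with their own), so B cell results that use either condition carry a conflict of labels, and the scanner labels were kept.

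Promoters are shown for 3 chains that rose at 12 h in both macrophage types, and for Il7r. On the probe used, Il7r had the largest fitted difference between cell types, and its other probes gave smaller ones. They are RefSeq windows of GRCm38.p6, from 250 bases before to 50 after a start site, written along the gene's strand. The start-site base and any motif match are in capitals. Il15ra has windows at chr2:11705043-11705342 and chr2:11705462-11705761 (plus strand), Il13ra1 at chrX:36111858-36112157 (plus), Il2rg at chrX:101268206-101268505 (minus) and Il7r at chr15:9529827-9530126 (minus).
Il15ra, window 1: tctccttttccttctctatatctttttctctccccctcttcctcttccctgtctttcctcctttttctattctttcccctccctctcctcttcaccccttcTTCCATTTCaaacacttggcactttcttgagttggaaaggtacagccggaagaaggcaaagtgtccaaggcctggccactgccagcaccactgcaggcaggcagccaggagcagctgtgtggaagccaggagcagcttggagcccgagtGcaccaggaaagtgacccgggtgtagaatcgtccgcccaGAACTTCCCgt
Il15ra, window 2: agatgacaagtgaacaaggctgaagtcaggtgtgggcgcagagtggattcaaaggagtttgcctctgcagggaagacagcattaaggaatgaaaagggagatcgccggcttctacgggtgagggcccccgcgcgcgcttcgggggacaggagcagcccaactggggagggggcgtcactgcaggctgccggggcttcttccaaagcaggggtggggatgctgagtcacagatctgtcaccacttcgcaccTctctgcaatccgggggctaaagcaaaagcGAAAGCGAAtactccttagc
Il13ra1: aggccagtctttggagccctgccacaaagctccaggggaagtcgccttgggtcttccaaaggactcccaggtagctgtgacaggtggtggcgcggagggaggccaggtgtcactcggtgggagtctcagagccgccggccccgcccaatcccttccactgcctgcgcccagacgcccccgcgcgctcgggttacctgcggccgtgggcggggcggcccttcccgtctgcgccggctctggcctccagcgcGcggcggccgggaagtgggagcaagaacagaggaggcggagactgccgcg
Il2rg: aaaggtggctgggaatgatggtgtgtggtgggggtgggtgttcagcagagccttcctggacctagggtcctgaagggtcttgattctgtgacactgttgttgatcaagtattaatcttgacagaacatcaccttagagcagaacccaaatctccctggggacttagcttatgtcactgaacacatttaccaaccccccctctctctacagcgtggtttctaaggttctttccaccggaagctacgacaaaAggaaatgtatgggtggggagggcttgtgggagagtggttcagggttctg
Il7r: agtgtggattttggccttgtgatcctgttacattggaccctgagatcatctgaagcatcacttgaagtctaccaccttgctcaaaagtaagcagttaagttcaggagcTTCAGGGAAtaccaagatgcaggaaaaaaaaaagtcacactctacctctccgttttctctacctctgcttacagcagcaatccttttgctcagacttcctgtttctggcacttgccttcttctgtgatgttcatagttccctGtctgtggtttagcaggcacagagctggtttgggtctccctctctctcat

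Of the 42 chains, 35 had a window. Both strands were searched for 3 motifs, the GAS element of STAT factors (TTCNNNGAA), a core of the interferon-stimulated response element ISRE (GAAANNGAA) and an NF-kB core (GGGANNTTC). They occur in 8.3%, 8.56% and 3.94% of 32851 RefSeq promoters of this length. A GAS match was found in the windows of 5 chains, Il7r (TTCAGGGAA at position -142 from the start site), Il12rb2, Il18r1, Il1r2 and Il31ra. The ISRE core matched in Il15ra (TTCCATTTC at -149 in window 1 and GAAAGCGAA at 31 in window 2), Il1rap and Il8ra, and the NF-kB core in Il15ra (GAACTTCCC at 40 in window 1), Il22ra1 and Il8rb. With ISRE and NF-kB cores of 10 letters, which were searched before, 0 windows of Il15ra held a match. Of the other chains with a window that rose at least 2-fold at 12 h, Il13ra1, Il2rg, Il4ra, Il2ra and Il23r, these letters were not in the window, and no window was found for the risers Il12rb1 and Il17ra.

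In resting cells the receptor chains differed in level between the cell types. EPM were bright for the IL-1 receptor and for IL-7 receptor alpha, BMDM stood between EPM and B cells for the IL-21 receptor, and B cells carried the IL-1 decoy receptor and the alpha chains for IL-2 and IL-5. In the early controls, 26 of the 35 tested chains differed between EPM and BMDM (16 higher in EPM, 10 lower, against 57.8% of all genes tested, 28.5% higher and 29.3% lower). B cells differed from EPM in 31 (15 higher, 16 lower, against 77.2%, 38.5% higher and 38.6% lower) and from BMDM in 29 (13 higher, 16 lower, against 76.6%, 37.5% higher and 39.1% lower). These counts describe the chains beside a background that is itself high. The median differences of the tested chains were 0.08, -0.09 and -0.06, against -0.01, -0.01 and -0.03 over all genes.

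**Figure D1:**
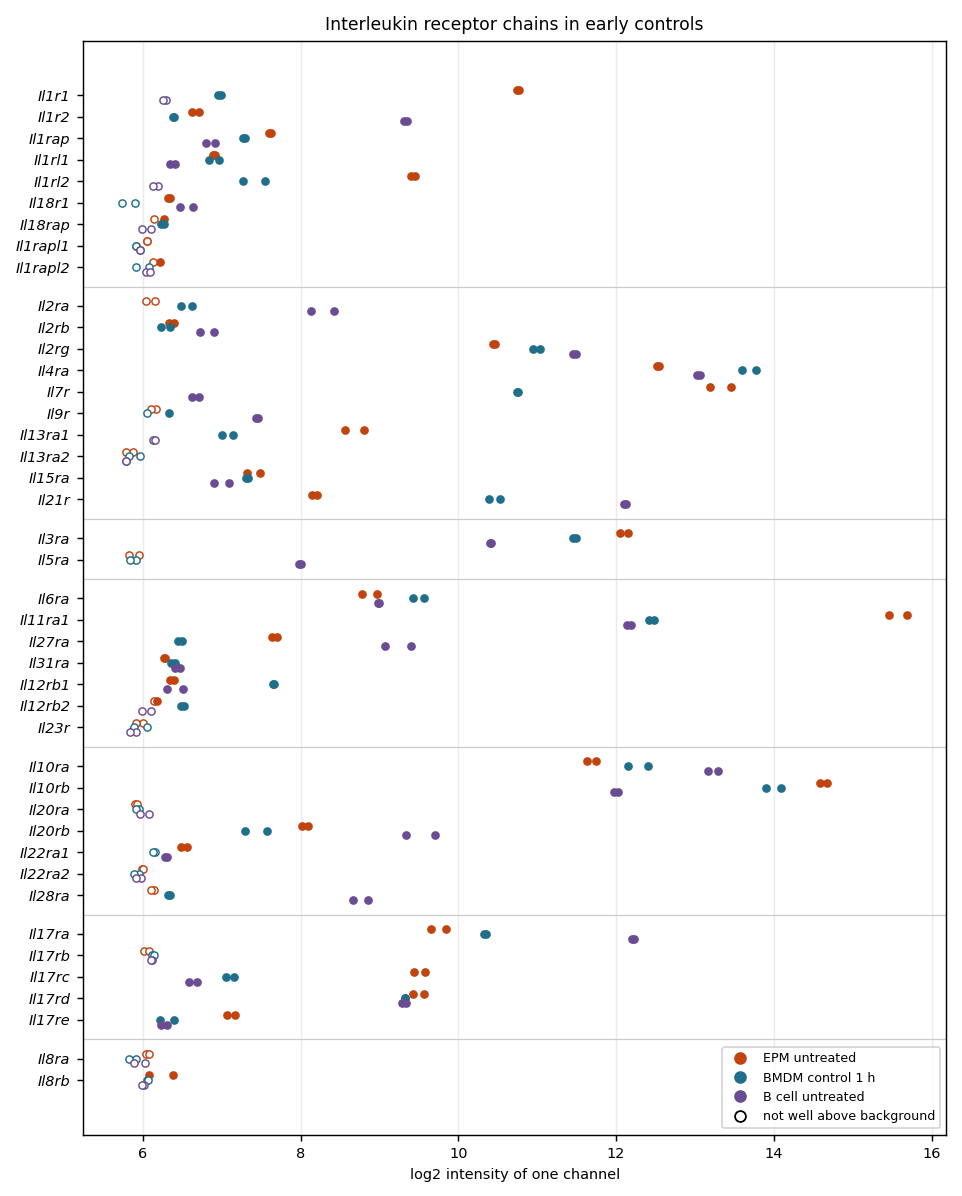
Normalised log2 intensity (x axis) of the 42 interleukin receptor chains (y axis, by family) in the early controls of EPM, BMDM and B cells. Each point is a channel (n = 2 per cell type), open points are not well above background, and levels are comparable along a line but not between lines. Il7r lies at 13.19 and 13.46 in EPM, 10.74 and 10.76 in BMDM and 6.62 and 6.71 in B cells.

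In the IL-1 receptor family, Il1r1, the signalling receptor for IL-1, was at 10.77 and 10.74 in EPM, 6.96 and 6.99 in BMDM, and 6.29 and 6.26 in B cells. EPM lay far above BMDM with no overlap, and B cells were not well above background. The level was 3.78 ± 0.07 (log2 difference ± SE) higher in EPM than in BMDM (13.7-fold, limma adjusted p = 1.11e-18) and at least 22.4-fold lower in B cells than in EPM. Il1rl2, the IL-36 receptor, was at 9.40 and 9.45 in EPM, 7.27 and 7.55 in BMDM, and 6.19 and 6.13 in B cells. On the probe used it followed the same order, 2.02 ± 0.09 higher in EPM than in BMDM and at least 9.61-fold lower in B cells than in EPM. These differences rest on that probe. A second Il1rl2 probe, of another accession, was well above background in only 1 channel of the series. Its means were 6.13 in EPM, 5.91 in BMDM and 5.82 in B cells, and it is not compared. Il1r2, the decoy that binds IL-1 without signalling, was at 6.63 and 6.71 in EPM, 6.39 and 6.38 in BMDM, and 9.35 and 9.31 in B cells. It ran the other way, brightest in B cells by 2.66 ± 0.06 over EPM and 2.94 ± 0.06 over BMDM.

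Among the common gamma chain receptors, Il7r, the alpha chain for IL-7 and TSLP, was at 13.19 and 13.46 in EPM, 10.74 and 10.76 in BMDM, and 6.62 and 6.71 in B cells. The 3 cell types did not overlap. The difference was 2.58 ± 0.08 between EPM and BMDM (5.96-fold) and -6.66 ± 0.08 between B cells and EPM (101-fold). The size depends on the probe. A further probe of the same accession gave 1.71 ± 0.06 and -3.62 ± 0.06, and a probe of another accession gave 0.58 ± 0.07 and -0.68 ± 0.07. Il21r, the private chain for IL-21, was at 8.15 and 8.21 in EPM, 10.39 and 10.53 in BMDM, and 12.10 and 12.12 in B cells. It rose from EPM through BMDM to B cells, with steps of 2.28 (4.86-fold) and 1.65 (3.13-fold). Il2ra, the high-affinity IL-2 receptor chain CD25, was at 6.15 and 6.04 in EPM, 6.48 and 6.62 in BMDM, and 8.43 and 8.13 in B cells. It was at least 4.53-fold higher in B cells than in EPM, where it was not well above background. Il13ra1, which pairs with Il4ra in the type II IL-4 receptor, was at 8.57 and 8.80 in EPM, 7.0 and 7.14 in BMDM, and 6.13 and 6.16 in B cells. It was thus at least 5.82-fold lower in B cells than in EPM and 1.62 ± 0.11 higher in EPM than in BMDM.

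Of the common beta chain receptors, Il5ra, the private IL-5 chain, was at 8.00 and 7.98 in B cells and not well above background in EPM (5.95 and 5.82) or BMDM (5.92 and 5.84). It was at least 4.04-fold and at least 3.79-fold higher in B cells. In the gp130 and IL-12 class, Il11ra1, the IL-11 binding chain, was at 15.69 and 15.46 in EPM, 12.48 and 12.42 in BMDM, and 12.19 and 12.14 in B cells. EPM stood alone, 3.12 ± 0.11 above BMDM. Its near-identical copy Il11ra2 may be read by the same probes. Il27ra, the IL-27 binding chain, was at 7.70 and 7.64 in EPM, 6.45 and 6.50 in BMDM, and 9.40 and 9.07 in B cells. It was 6.77-fold higher in B cells than in BMDM.

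Of the class II receptors, Il28ra was at 6.14 and 6.10 in EPM, 6.35 and 6.32 in BMDM, and 8.85 and 8.66 in B cells. The B cell values stood apart, at least 6.23-fold above EPM. Il20rb, a chain shared by IL-19, IL-20 and IL-24, was at 8.10 and 8.02 in EPM, 7.57 and 7.29 in BMDM, and 9.71 and 9.34 in B cells. It was brightest in B cells, 4.27-fold above BMDM. Il10rb, the chain that IL-10 shares with IL-22 and interferon lambda, was at 14.68 and 14.59 in EPM, 14.09 and 13.90 in BMDM, and 12.03 and 11.98 in B cells. It was 6.18-fold lower in B cells than in EPM, but the direction depended on the probe. A second Il10rb probe, well above background in all 24 channels, had means of 6.69 in EPM, 6.64 in BMDM and 7.08 in B cells. In the IL-17 family, Il17ra, the chain common to the IL-17 receptors, was at 9.85 and 9.65 in EPM, 10.35 and 10.32 in BMDM, and 12.23 and 12.20 in B cells. Its partner Il17rc was at 9.44 and 9.58 in EPM, 7.06 and 7.16 in BMDM, and 6.69 and 6.59 in B cells. Il17ra was thus 5.5-fold higher in B cells than in EPM and Il17rc 7.33-fold lower, but the order of BMDM and B cells for Il17rc depended on the probe. A second probe of the same accession, well above background in all 24 channels, was at 8.25 and 8.56 in EPM, 6.69 and 6.87 in BMDM, and 7.53 and 7.36 in B cells. On it B cells lay below EPM by 0.95 on the log2 scale (-0.95 ± 0.12) and above BMDM by 0.67 ± 0.12. The remaining probe, of another accession and on the minus strand, was well above background in 7 of the 24 channels and is not compared.

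After 12 h of KLA the largest fitted increases in EPM and BMDM were those of Il15ra and Il12rb1. Il15ra binds IL-15, and IL-12 and IL-23 share Il12rb1. In BMDM the increase of Il23r is a lower bound and cannot be ranked against them. Over the scalings it reached 7.57 on the log2 scale, against 4.67 for Il12rb1 and 4.15 for Il15ra. More chains rose than fell in BMDM, while in EPM the median change was near 0. In EPM 14 chains rose and 9 fell, and in BMDM 18 rose and 2 fell. The 18 include Il5ra, which was not well above background in either BMDM condition. They also include Il8rb, well above background in 1 channel after KLA and in none of the control. Over all genes tested, 53.9% were called in EPM (19.6% higher, 34.3% lower) and 65% in BMDM (28.6% higher, 36.3% lower). At least 2-fold increases were seen for 5 chains in EPM (against 4.81% of all genes) and for 8 in BMDM (against 6.26%). No tested chain had a fitted fall of 2-fold in either, but falls to background are lower bounds. The median change of the tested chains was -0.02 in EPM and 0.27 in BMDM, against -0.06 and -0.03 over all genes. Without quantile normalization between arrays the EPM count was 14 higher and 5 lower, and the median of all genes in BMDM was -0.14. With each array averaged to a single sample and both controls of a cell type as replicates, 3 chains were called in EPM (Il13ra1, Il15ra and Il12rb1) and 8 in BMDM.

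**Figure D2:**
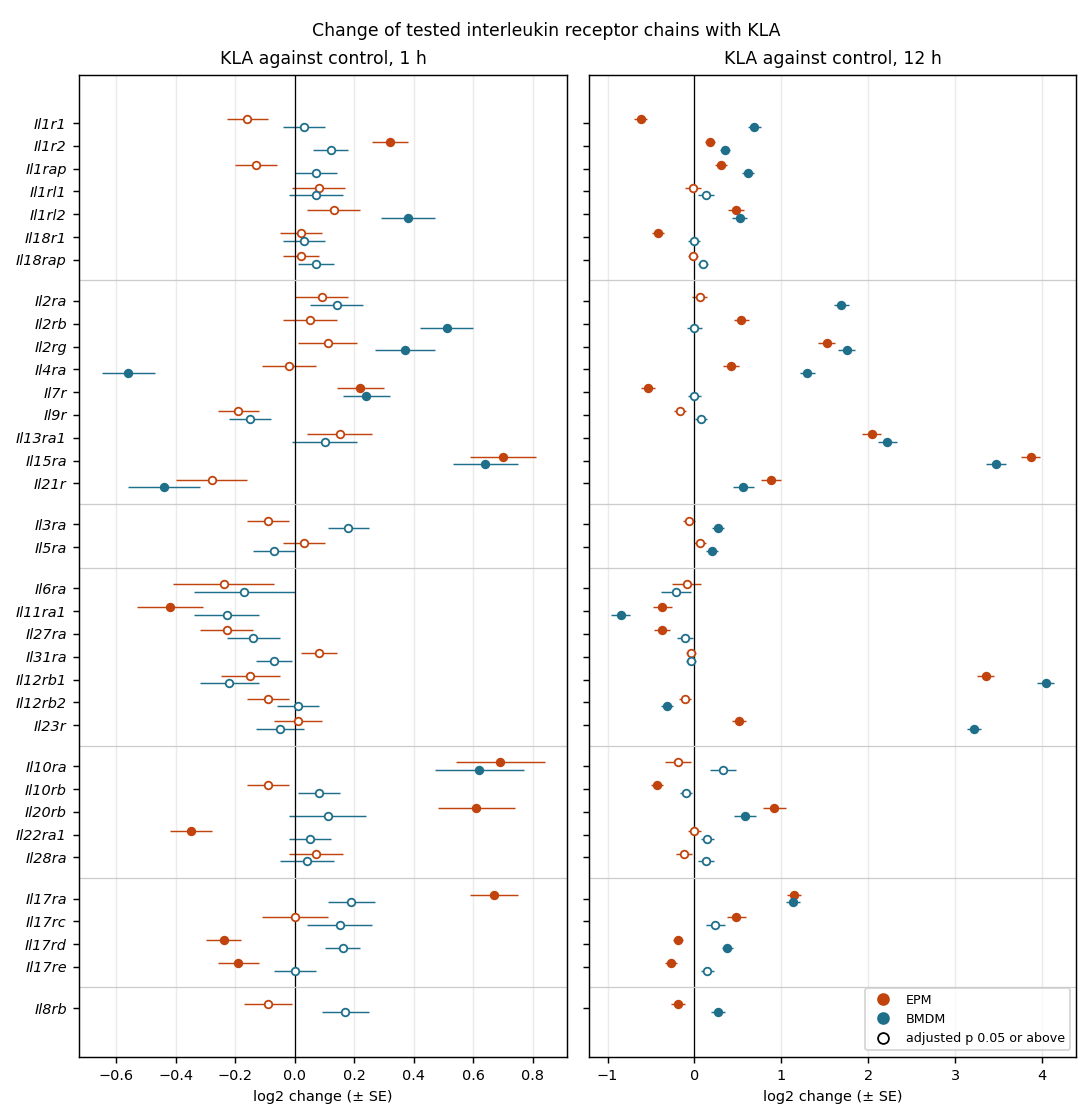
Log2 change with KLA against the same-time control (x axis, ± SE) for the 35 tested chains (y axis) in EPM and BMDM at 1 h and 12 h, n = 2 channels per condition. Filled points have a limma adjusted p under 0.05. At 1 h no fitted change reached 2-fold. At 12 h Il15ra and Il12rb1 rose by 3.87 and 3.35 in EPM and by 3.47 and 4.04 in BMDM.

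Il15ra, the chain that holds IL-15 and presents it to neighbouring cells, was read by a probe at chr2:11641979-11648480 (mm8, plus strand). It was at 7.46 and 7.35 in EPM controls at 12 h and at 11.36 and 11.20 after KLA. Controls of BMDM were at 7.16 and 7.44 and KLA-treated BMDM at 10.77 and 10.76. The groups stood far apart in both. The increase was 3.87 ± 0.11 in EPM (14.6-fold, adjusted p = 1.11e-15) and 3.47 ± 0.11 in BMDM (11-fold, adjusted p = 4.79e-15), and a second probe gave 3.56 ± 0.08 and 3.24 ± 0.08. Its ligand Il15 rose by 1.04 ± 0.08 in EPM and 1.28 ± 0.08 in BMDM.

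Il12rb1, the chain common to the IL-12 and IL-23 receptors (probe at chr8:73750279-73750338 of mm8, plus strand), was at 6.12 and 6.28 in EPM controls, of which only the latter was well above background, and at 9.41 and 9.68 after KLA. The BMDM values were 7.32 and 7.31 in controls and 11.33 and 11.37 after KLA. It rose by 3.35 ± 0.10 in EPM (10.2-fold) and by 4.04 ± 0.10 in BMDM (16.4-fold). Il23r, the private IL-23 chain (probe at chr6:67356242-67361241 of mm8, minus strand), was not well above background in the 12 h controls of EPM (5.95 and 5.97) or BMDM (5.84 and 5.92). After KLA it was at 6.50 and 6.44 in EPM and at 9.01 and 9.18 in BMDM. The increase was at least 1.34-fold in EPM and at least 8.53-fold in BMDM. Il12rb2, which completes the IL-12 receptor, fell by at least 1.25-fold in BMDM (adjusted p = 0.000391), where it was not well above background after KLA, and was at background in both conditions in EPM. Of the ligand chains, Il12b, the subunit common to IL-12 and IL-23, rose by at least 4.16-fold in EPM and at least 19.3-fold in BMDM from controls at background. Il12a rose by 2.87 ± 0.07 in EPM, where 1 control channel was well above background, and by 0.18 ± 0.07 in BMDM. Il23a was at background in all 4 conditions.

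Il2rg, the common gamma chain, was at 10.15 and 10.22 in EPM controls and 11.64 and 11.78 after KLA. BMDM controls were at 10.87 and 10.85 and treated BMDM at 12.59 and 12.63. It rose by 1.52 ± 0.10 (2.87-fold) and 1.75 ± 0.10 (3.36-fold) with no overlap. Il13ra1 was at 8.71 and 8.97 in EPM controls and 10.75 and 11.01 after KLA. In BMDM it was at 6.99 and 7.02 in controls and 9.11 and 9.34 after KLA. It rose by 2.04 ± 0.11 (4.11-fold) and 2.22 ± 0.11 (4.66-fold), while a second probe gave smaller increases of 1.02 and 0.85. The difference between the responses of EPM and BMDM was -0.23 for Il2rg (95% interval -0.52 to 0.06) and -0.18 for Il13ra1 (-0.50 to 0.14), and neither passed the test.

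Il4ra, the chain that binds IL-4 and pairs with Il2rg or Il13ra1, was at 12.14 and 12.20 in EPM controls and 12.45 and 12.72 after KLA. BMDM went from 13.18 and 13.34 in controls to 14.46 and 14.66 after KLA. It rose in both, by 0.42 ± 0.09 in EPM and by 1.30 ± 0.09 in BMDM (2.46-fold). Il2ra was not well above background in EPM at 12 h, with 6.09 and 6.12 in controls and 6.09 and 6.23 after KLA. In BMDM it was at 6.47 and 6.46 in controls and at 8.17 and 8.14 after KLA, an increase of 1.69 ± 0.09 (3.23-fold). Further probes of Il2ra in BMDM gave 1.27 ± 0.07 and 0.55 ± 0.07. Il2rb, the signalling chain of the IL-2 and IL-15 receptors, rose by 0.54 ± 0.09 in EPM and differed by 0 ± 0.09 in BMDM.

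Il17ra was at 9.11 and 9.26 in EPM controls at 12 h and at 10.34 and 10.33 after KLA. In BMDM it was at 9.14 and 9.22 in controls and 10.20 and 10.41 after KLA. The increases were 1.15 ± 0.08 and 1.13 ± 0.08 (2.22-fold and 2.19-fold), with a difference between cell types of 0.02 (95% interval -0.21 to 0.25). They rest on the choice of control. The 12 h controls lay below the early controls by 0.57 in EPM and by 1.16 in BMDM, and against the early controls KLA at 12 h differed by 0.58 ± 0.08 in EPM (adjusted p = 4.11e-06) and by -0.03 ± 0.08 in BMDM (adjusted p = 0.795). The other 12 increases of at least 2-fold in this comparison kept their direction and their call against the early controls.

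**Figure D3:**
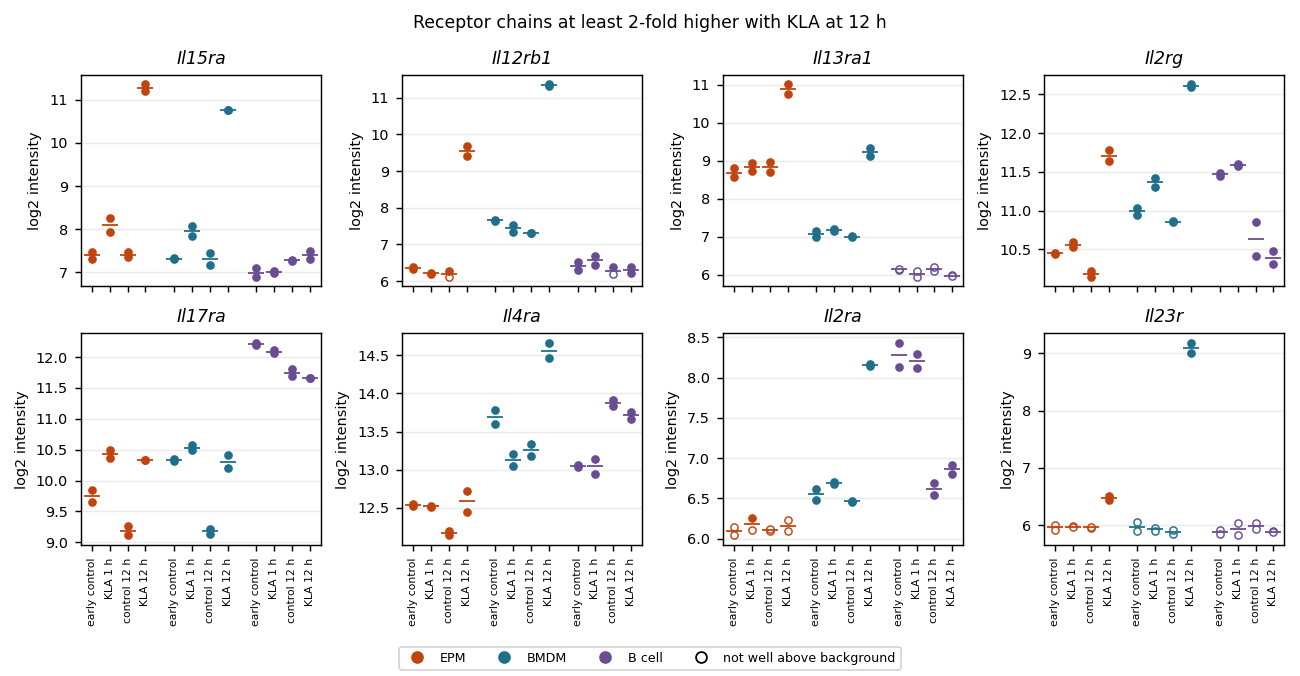
Normalised log2 intensity (y axis) of the 8 chains that rose at least 2-fold with KLA at 12 h in EPM or BMDM, over the 12 conditions (x axis). Each point is a channel (n = 2), and open points are not well above background. Il15ra is at 11.36 and 11.20 in EPM and 10.77 and 10.76 in BMDM after 12 h of KLA, and at 7.49 and 7.32 in B cells.

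Smaller changes at 12 h ran through most families. Il21r rose by 0.88 ± 0.12 in EPM and 0.56 ± 0.12 in BMDM, and Il20rb by 0.92 ± 0.13 and 0.58 ± 0.13. A second Il20rb probe, well above background in all 24 channels, gave 0.25 and 0.06. Without quantile normalization between arrays Il21r was not called in BMDM. In the IL-1 receptor family, the IL-36 receptor Il1rl2 rose by 0.48 ± 0.09 and 0.52 ± 0.09, and the accessory chain Il1rap by 0.31 ± 0.07 and 0.62 ± 0.07. The increases of Il1rl2 rest on the probe used, since its second probe was well above background in only 1 channel of the series. A second probe of Il1rap, of another accession, was at 7.91 and 7.62 in BMDM controls at 12 h and at 6.88 and 6.80 after KLA, so that it ran against the first. A probe of Il1rl1, the IL-33 receptor ST2, that was not the brightest and was noticed only after its values were seen, was at 6.54 and 6.65 in EPM controls at 12 h and at 7.75 and 7.66 after KLA. It rose by 1.11 in EPM and 0.48 in BMDM, while the probe used did not pass the test in either.

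No fitted fall reached 2-fold, but a fall to background is a lower bound. Il11ra1 fell in both macrophage types, by 0.37 in EPM and by 0.85 in BMDM on the log2 scale. In EPM the further calls were Il10rb (-0.43 ± 0.07), Il27ra (-0.37 ± 0.09), Il7r (-0.53 ± 0.08) and Il1r1 (-0.62 ± 0.07), with Il17re at -0.27 ± 0.07 and Il17rd at -0.19 ± 0.06. Il18r1 and Il8rb were also called, but were not well above background after KLA, and fell by at least 1.34-fold and at least 1.14-fold. Over the scalings their fitted changes ran down to -2.09 and -1.68. In BMDM Il12rb2 was the other chain called lower, and its fitted change ran down to -1.59 over the scalings. Without quantile normalization between arrays, the calls of Il10rb, Il7r, Il11ra1 and Il17rd in EPM were lost. Il7r was at 13.76 and 13.71 in EPM controls at 12 h and 13.25 and 13.16 after KLA, and in BMDM it differed by 0 ± 0.08. A second Il7r probe gave -0.03 ± 0.06 in EPM and 0.47 ± 0.06 in BMDM. For Il10rb a second probe gave -0.14 in EPM.

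At 1 h 28.6% of the tested chains were called in EPM and 22.9% in BMDM, and no fitted change reached 2-fold. Over the scalings Il22ra1 in EPM ran down to -1.45 and Il2rb in BMDM up to 1.28. In EPM 6 rose and 4 fell (against 29.1% of all genes called, 9.39% higher and 19.7% lower), and in BMDM 6 rose and 2 fell (against 28.6%, 11% higher and 17.6% lower). With an offset of 16 in the background correction the EPM split was 5 and 5. The median changes were 0.01 and 0.07, against -0.05 and -0.03 over all genes. With array means as the samples, 0 were called in either by limma, while 14 and 12 had an unadjusted p under 0.05 with channels as the samples.

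Il10ra, the IL-10 binding chain, was at 11.63 and 11.74 in untreated EPM and at 12.28 and 12.47 after 1 h of KLA. In BMDM it was at 12.15 and 12.40 in controls and 12.76 and 13.03 after KLA. It rose in both, by 0.69 ± 0.15 and 0.62 ± 0.15, and its ligand Il10 rose by 3.32 ± 0.07 and 2.23 ± 0.07. At 12 h Il10ra did not pass the test in EPM (-0.19 ± 0.15) or BMDM (0.33 ± 0.15), but was called in both with the replicate block, and in BMDM also with the authors' table. Il15ra had also begun to rise, from 7.32 and 7.48 to 8.26 and 7.93 in EPM (0.70 ± 0.11) and from 7.31 and 7.33 to 8.07 and 7.85 in BMDM (0.64 ± 0.11). Il17ra rose in EPM, from 9.85 and 9.65 to 10.49 and 10.36 (0.67 ± 0.08), and differed by 0.19 ± 0.08 in BMDM (adjusted p = 0.0753). A second Il17ra probe of the same accession rose in both, by 0.83 ± 0.11 in EPM and 0.64 ± 0.11 in BMDM. Il20rb (0.61 ± 0.13) and Il1r2 (0.32 ± 0.06) rose in EPM, and Il2rb (0.51 ± 0.09), Il1rl2 (0.38 ± 0.09) and Il2rg (0.37 ± 0.10) in BMDM. For Il1rl2 this also rests on the probe used. In BMDM Il4ra went from 13.60 and 13.78 to 13.05 and 13.21, a fall of 0.56 on the log2 scale, and the IL-21 receptor Il21r fell by 0.44. In EPM Il11ra1, Il17rd and Il17re fell by 0.42, 0.24 and 0.19, and Il22ra1, which was not well above background after KLA, by at least 1.27-fold. With Agilent's processed signal the calls of Il11ra1 and Il17re were lost, as was that of Il11ra1 without quantile normalization and that of Il17re with an offset of 16. Il7r rose by 0.22 in EPM and 0.24 in BMDM, but these calls depended on the scaling and the probe. The EPM value changed sign under another scaling, to -0.07, the BMDM call was lost with an offset of 16, with the processed signal and without quantile normalization, and a second probe of the same accession was called lower in EPM (-0.18 ± 0.06, adjusted p = 0.0451).

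The responses of EPM and BMDM were compared with an interaction term. At 12 h, 16 of the tested chains differed (3 more positive and 13 more negative in EPM, against 47.8% of all genes, 23.2% and 24.6%), and at 1 h 5 differed (2 and 3, against 9.56%, 4.07% and 5.49%). Without quantile normalization between arrays the split at 12 h was 9 and 9. Il23r and Il2ra were called with a larger increase in BMDM at 12 h. Their fitted differences (EPM minus BMDM) were -2.71 and -1.64 and are no exact measure, since Il23r was at background in both 12 h controls and Il2ra in both EPM conditions, and they ran from -4.17 to -2.55 and from -2.50 to -1.41 over the scalings. The difference of Il1r1 was -1.31 ± 0.09. For Il1r1 the directions were opposite. It went from 11.10 and 10.95 to 10.45 and 10.37 in EPM (-0.62 ± 0.07) and from 6.33 and 6.22 to 6.97 and 6.97 in BMDM (0.69 ± 0.07). In BMDM the 12 h control lay 0.70 below the early control on the log2 scale, and KLA at 12 h differed from that early control by -0.01 (adjusted p = 0.91). Il4ra differed by -0.88 ± 0.13 at 12 h and by 0.54 ± 0.13 at 1 h, and Il17ra by 0.48 ± 0.11 at 1 h. On the second Il17ra probe the difference at 1 h was 0.19 ± 0.15 (adjusted p = 0.544). The differences of Il15ra (0.41 ± 0.16, adjusted p = 0.0413) and Il12rb1 (-0.69 ± 0.14) at 12 h were lost with an offset of 16 and with Agilent's processed signal, and that of Il12rb1 changed sign, to 1.07. Neutrophil markers were brighter in BMDM than in EPM in each of the 4 conditions, and their part in these differences was not tested.

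**Figure D4:**
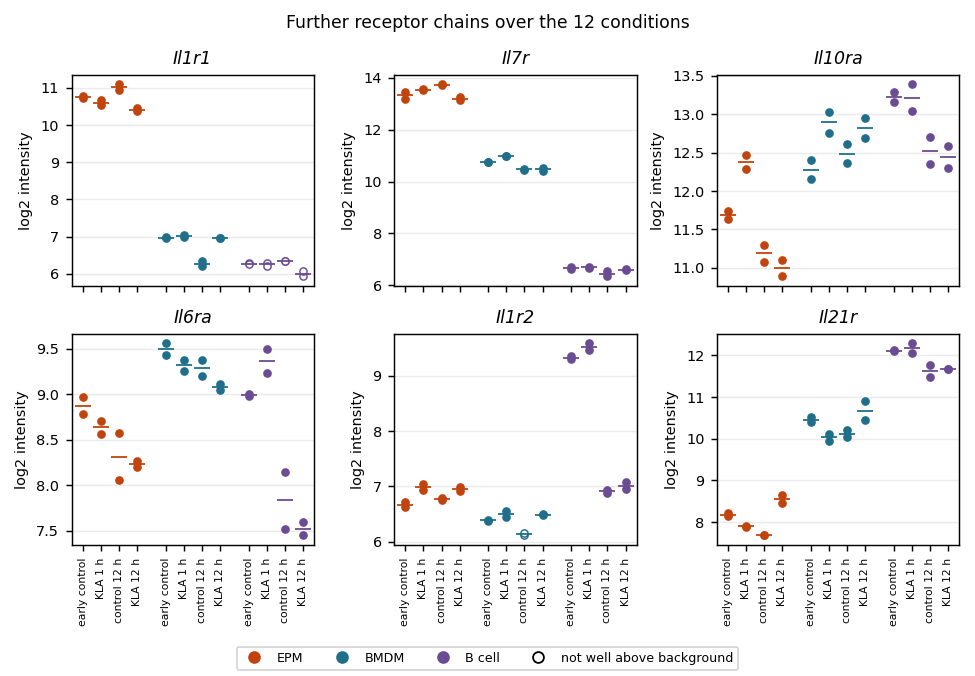
Normalised log2 intensity (y axis) of Il1r1, Il7r, Il10ra, Il6ra, Il1r2 and Il21r over the 12 conditions (x axis). Points are channels (n = 2), dashes are their means, and open points are not well above background. Il1r2 in B cells is at 9.35 and 9.31 untreated and at 6.95 and 7.07 after 12 h of KLA.

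In B cells 5.71% of the tested chains were called against the same-time control at 1 h and 2.86% at 12 h. At 1 h Il3ra, the IL-3 binding chain, rose by 0.38 ± 0.07 and Il17rd by 0.26 ± 0.06 (2 of 35, against 5.17% of all genes, 2.72% higher and 2.45% lower), and 5 had an unadjusted p under 0.05. Without quantile normalization between arrays the split was 1 and 1. At 12 h Il1r1, which was not well above background after KLA, fell by at least 1.23-fold (1 of 35, against 5.29%, 2.81% higher and 2.48% lower), and 9 had an unadjusted p under 0.05. With the labels of the conflicting conditions exchanged, the count of chains called was 16 at 1 h and 19 at 12 h. The exchanged 1 h comparison sets the channels labelled 12 h control against untreated cells, where 47.4% of all genes were called. The 12 h count is given without the share of all genes. Neither count is read as a result about the chains.

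The comparison of B cells after 12 h of KLA with untreated B cells uses neither of the conflicting conditions, but KLA and time in culture cannot be told apart in it. Here 4 chains rose and 12 fell (against 46.3% of all genes, 23.8% higher and 22.5% lower). Il1r2 went from 9.35 and 9.31 to 6.95 and 7.07, a 4.99-fold decrease. Il6ra, the IL-6 binding chain, went from 8.98 and 9.0 to 7.45 and 7.60 (-1.46 ± 0.17), and Il2ra from 8.43 and 8.13 to 6.92 and 6.80 (-1.42 ± 0.09). Il20rb (-1.44 ± 0.13) and Il2rg (-1.08 ± 0.10) also fell at least 2-fold, which makes 5 such chains (against 1.18% of all genes). The size depended on the probe. A second Il20rb probe, of another accession and well above background in all 24 channels, gave -0.20 ± 0.10 and was not called, further Il2ra probes gave -0.75 ± 0.07 and -0.53 ± 0.07, and second probes of Il1r2 and Il6ra gave -1.43 ± 0.08 and -1.33 ± 0.18. Il10ra and Il9r, the IL-9 binding chain, fell by 0.78 and 0.71. Il10rb rose from 12.03 and 11.98 to 12.91 and 12.85 (0.88 ± 0.07), Il4ra by 0.67 ± 0.09, Il27ra by 0.54 ± 0.09 and Il15ra by 0.41 ± 0.11. On a second Il10rb probe the means were 7.08 in untreated B cells and 7.31 after 12 h of KLA. The condition labelled 12 h control had 4 higher and 12 lower against untreated cells (against 47.4%), and both comparisons share the untreated array. The summed intensity of the 8 macrophage markers was 2650 in untreated B cells and 5810 after 12 h of KLA, with Emr1 at 7.52 and 10.61 and Ctsd at 10.66 and 11.72, while Csf1r was at 6.45 and 6.34, Cd68 at 7.82 and 7.17, and Itgam and Mrc1 at background in both. That of 7 T cell markers was 1630 and 3180, with Lck at 10.11 and 11.37. The defining T cell genes were alike in both, with Cd3e at 7.05 and 7.10 and Cd4 at 6.67 and 6.62, and Cd3g and Thy1 at background. The part of these markers in the changes of the chains was not tested.

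The genes that work with these chains were taken from a list of 68 partners, which were 13 other receptor chains, 33 ligands, 2 soluble antagonists and 20 signalling genes. At 12 h in EPM, 14 of the 23 tested ligands rose and 3 fell (against 19.6% of all genes higher and 34.3% lower), and in BMDM 15 rose and 2 fell (against 28.6% and 36.3%). Of the 20 signalling genes, 13 rose and 3 fell in EPM, and 14 rose and 2 fell in BMDM. Jak2, the kinase of the IL-12 and common beta chain receptors, rose by 2.52 ± 0.08 and 2.68 ± 0.08, and Jak3, the partner of the common gamma chain, by 0.55 ± 0.11 in BMDM with 0.04 ± 0.11 in EPM. Socs1, a feedback inhibitor of JAK kinases, rose by 3.70 ± 0.07 and 4.91 ± 0.07. Both antagonists rose in both, Il1rn, which blocks Il1r1, by 3.54 ± 0.11 and 3.45 ± 0.11, and Il18bp, which binds IL-18, by 4.66 ± 0.07 and 3.69 ± 0.07.

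Of the 12 other receptor chains tested at 12 h, 7 rose and 3 fell in EPM (against 19.6% of all genes higher and 34.3% lower). In BMDM 6 rose and 5 fell (against 28.6% and 36.3%). Il6st, which encodes gp130, fell by 0.68 and by 1.03 on the log2 scale, and Sigirr, an inhibitory member of the IL-1 receptor family, by 0.38 and by 1.46. Ifngr1, the interferon gamma binding chain, fell by 1.24 and by 1.68, while Csf3r, the G-CSF receptor, rose by 1.99 ± 0.08 and 2.19 ± 0.08. At 1 h 8 ligands rose in EPM and 13 in BMDM (against 9.39% and 11% of all genes). In B cells 1 of the 23 ligands was called at 1 h (against 5.17%), and at 12 h 3 rose and 1 fell (against 5.29%). Both comparisons carry the conflict of labels.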

How the data were processed

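Expression was measured in 24 channels of 12 Agilent arrays, grouped by the labels into 12 conditions (n = 2). The study states 3 replicates on Agilent or Illumina arrays, and 2 per condition were analysed here. The authors deposited scanner files of spot intensity (Agilent Feature Extraction 9.5.3.1) and a table of normalised intensity values, whose normalization is not given in the sources used here and which was used as an alternative. Probe coordinates in the files are of mm8.

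Background was corrected with normexp (offset 50), followed by loess within arrays, quantile normalization of the mean intensities of arrays, and log2 of each channel. Control and outlier spots were left out, and spots of a probe were averaged, with no missing value among the members. Of the probes of a gene (21 of the 42 members had several), the one with the highest mean was used, and genes entered the test if that probe stood well above background in both channels of some condition. No probe was saturated. Where a group was at background, the fold is a lower bound, and each channel of that group was set to its own value or to the dimmest signal called well above background (5.44 to 6.16 on the log2 scale), whichever was higher. The fit used limma 3.58.1 in R 4.3.3 (data.table version 1.17.8), with a coefficient per condition, 12 residual degrees of freedom, and p-values adjusted by Benjamini-Hochberg over the whole table, called under 0.05. It was tested on simulated data. Figures were drawn with matplotlib 3.10.9 in Python 3.11.15. The number of arrays limits the precision.

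Values in every channel are given for members changed at least 2-fold by KLA in a macrophage type or at least 4-fold between cell types, and others were added for context. The members and lists were chosen with earlier results of these data known. The dye names the replicate in each condition, and differences between Cy5 and Cy3 correlated between all 66 pairs of arrays (0.27 to 0.63, median 0.44), so the dye pairs the channels. The alternatives were another offset, the processed signal, other normalizations, the authors' normalised values, other filters, the mean of probes, the replicate block, arrays as samples, and each replicate left out. The early control as reference and the test of every probe were added after the data were seen.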

Additional observations from a re-analysis of the deposited data

Results flagged for a closer look

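These results stood out because the response to KLA differed between EPM and BMDM by a test of the difference itself, in chains that moved at least 2-fold in a macrophage type. At 1 h the difference, EPM minus BMDM on the log2 scale, was 0.54 for Il4ra, which fell in BMDM, and 0.48 for Il17ra, which rose in EPM. A second Il17ra probe of the same accession rose in both and gave 0.19 ± 0.15 (adjusted p = 0.544), so that the difference rests on the probe used. At 12 h it was -0.88 for Il4ra. The fitted values were -2.71 for Il23r and -1.64 for Il2ra, which are no exact measure, since Il23r was at background in both 12 h controls and Il2ra in both EPM conditions. It was 0.41 for Il15ra and -0.69 for Il12rb1, and these were the differences that were lost under other background corrections. With array means as the samples, Il23r alone among the tested chains was called for a difference at 12 h.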

How the results depend on the processing

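The 13 increases of at least 2-fold at 12 h kept their direction and their call under every scaling, filter and probe rule tried for them, with the replicate block and with each replicate left out. With array means as the samples 5 were not called, Il2rg in EPM (1.39, adjusted p = 0.0719), Il17ra in EPM (0.87, 0.417) and BMDM (0.55, 0.548), Il2ra in BMDM (1.65, 0.143) and Il4ra in BMDM (1.08, 0.121). Against the early control, Il17ra in BMDM was not called (-0.03 ± 0.08, adjusted p = 0.795).

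With array means as the samples, both controls of a cell type served as replicates, so differences between these controls enter the spread. In B cells the 12 h control differed from untreated cells in 47.4% of all genes, and it carries the conflict of labels. The counts of chains called were 0 at 1 h in EPM, BMDM and B cells and at 12 h in B cells. At 12 h 3 were called in EPM and 8 in BMDM. Between cell types the counts were 12 for EPM and BMDM, 19 for B cells and EPM, and 17 for B cells and BMDM. For the differences in response they were 0 at 1 h and 1 at 12 h. The replicate block, which pairs channels by dye, kept every call, changed no other count by over 1.5 times and gave 13 in BMDM at 1 h (9 higher, 4 lower) and 4 in B cells at both times. The count for B cells was 16 at 1 h and 18 at 12 h with the authors' table, 16 and 19 with the conflicting labels exchanged, and at 12 h 4 with the processed signal (1 higher, 3 lower), 0 for chains well above background in every condition compared, and 16 against the untreated array. The difference in response gave 3 at 1 h with the mean of probes and 10 at 12 h for chains well above background in every condition. The cause was not tested in these cases, beyond fewer samples, fewer genes or pooled controls where the alternative itself brings them. Counts in this section are given without the share of all genes called under the same setting. They describe the setting and are not read as a result about the chains.

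Leaving out each replicate, with the remaining channel taken to vary like the other conditions, gave 7 to 9 chains at 1 h and 19 to 22 at 12 h in EPM, 4 to 7 and 18 to 22 in BMDM, 1 to 2 and 0 to 3 in B cells, 24 to 25 between EPM and BMDM, 27 to 29 between B cells and EPM, 26 to 28 between B cells and BMDM, and 3 to 5 and 13 to 17 for the differences in response. Counts of 4 in BMDM at 1 h came without control replicate 1 or KLA replicate 2. In B cells 1 chain was left at 1 h without either untreated replicate or KLA replicate 1, and at 12 h 3 without control replicate 1 and 0 without KLA replicate 1. A count of 3 for the difference at 1 h came without EPM untreated replicate 2 or EPM KLA 1 h replicate 1. Without quantile normalization between arrays the median of all genes was -0.14 for B cells against EPM, -0.22 for B cells against BMDM and 0.17 for the difference in response at 12 h. Signal over background limits the dim chains, such as Il23r, Il2ra and Il1r2 in macrophages.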
